A study of Mus musculus with 9 samples.

Results

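The prostaglandin and arachidonic acid release enzymes comprised 10 genes of the 28932 genes with an identifier in the deposited transcript tables. They were 3 phospholipases (Pla2g4a, Pla2g6, Pla2g15), both cyclooxygenases (Ptgs1, Ptgs2), 2 prostaglandin E synthases (Ptges, Ptges2), 2 enzymes that inactivate prostaglandins (Ptgr1, Hpgd) and 1 lipoxygenase (Alox5). Members were matched by gene symbol, and each gene was represented by its transcript with the highest mean read count over all 9 libraries, whatever their group. Those mean counts chose the transcripts, so the order of the members by level is a description. Of the 10 members, 7 passed the filter on low counts, and Ptgs2, Hpgd and Alox5 did not.

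Arachidonic acid is stored in membrane phospholipids and is set free mainly by cytosolic phospholipase A2, the product of Pla2g4a, which is activated by calcium and phosphorylation. Cyclooxygenases convert the free acid to prostaglandin H, terminal synthases such as Ptges turn that into prostaglandin E and its relatives, and lipoxygenases lead instead to leukotrienes. Hpgd and Ptgr1 act in sequence to oxidise and reduce prostaglandins to inactive products. In liver this pathway is known for signalling between parenchymal and non-parenchymal cells, and Pla2g4a and Ptgs2 have been described in other systems as responsive to the aryl hydrocarbon receptor (AhR), the ligand-activated transcription factor that the study addressed.

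RNA sequencing had been done on mouse hepatoma cells labelled Hepa 1 WT, with the cell line given as HC1C. Groups of 3 libraries each were compared after 6 h: FICZ at 10 nM, an indole photoproduct of tryptophan that binds AhR with high affinity; tryptamine at 50 uM, an indole monoamine described by the study's title as a proligand whose effect depends on monoamine oxidases; and a control, called untreated in 1 label and vehicle in the protocol. No label gives a genetic change that sets the groups apart. No label says that the libraries of a group came from separate cultures, so p-values measure the spread between these libraries, which may be technical. Total counts were between 11594793 and 16715841 per library.

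The tested doses of both ligands induced the AhR target Cyp1a1, at 1003 CPM (counts scaled by TMM-adjusted library size) with FICZ and 702 CPM with tryptamine, against 59.2 CPM in the control. Control replicate 3 stood apart. Its log2 CPM values correlated across genes with those of the other 8 libraries at r = 0.961 to 0.966, against 0.992 to 0.995 among those 8, and its difference from the other controls followed transcript length. The median log2 ratio of control replicate 3 to the mean of controls 1 and 2 was 0.64 for transcripts up to 1000 nt and -0.85 for those over 6000 nt. Values without that library are therefore given beside the results it changed. Among hepatocyte markers Alb, Trf, Krt8 and Krt18 averaged 229.7, 446, 1945 and 2146 CPM, whereas Ttr, Apoa1 and Hnf4a had 0 counts, Serpina1b 1 and Fgb 2 in all libraries, so the hepatocyte label held for part of its markers. Of 11 such markers 6 passed the filter, and Afp and Apoa2 averaged 135 and 2.18 CPM. The list summed to 4390.2 to 4551 CPM with FICZ, 4613 to 4804 CPM with tryptamine and 4863 to 6769 CPM in the control. Krt8 and Krt18 made up most of that sum. Of 7 leukocyte markers in the tables the pan-leukocyte gene Ptprc had 17 counts in all and Emr1 had 0. Csf1r, Cd14, Lyz2, Cd68 and Itgam averaged 53.0, 18.6, 13.0, 3.70 and 0.820 CPM. The list summed to 83.1 to 86.1 CPM with FICZ, 86.6 to 89.4 with tryptamine and 79.6 to 119.6 in the control. Of 4 endothelial markers Cdh5 and Tek had 0 counts, and the list summed to 0.569 to 1.03 CPM with FICZ, 0.204 to 0.770 with tryptamine and 0.428 to 1.28 in the control. Of 5 fibroblast and stellate cell markers Lrat had 0 counts and Col1a2 had 11 in all libraries. Col1a1, Pdgfrb and Des averaged 1189, 45.2 and 10.7 CPM, so Col1a1 made up most of the sum. The list summed to 1232 to 1359 CPM with FICZ, 1189 to 1369.6 with tryptamine and 933 to 1273 in the control. The part of these lists in the results below was not tested, and in bulk RNA fewer cells of a type and less RNA per cell cannot be told apart.

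The promoters of Pla2g4a and of both cyclooxygenases are shown because Pla2g4a was the member called without control replicate 3, and because the cyclooxygenases had opposite levels in these cells. Pla2g4a and Ptgs2 are neighbours on mouse chromosome 1, with no other protein-coding gene listed between them. Each window runs from 250 bases before to 50 bases after the gene's start, 5′ to 3′ on the gene's strand, from RefSeq's table for GRCm38.p6. The windows are chr1:149961241-149961540 (minus strand) for Pla2g4a, chr2:36230176-36230475 (plus strand) for Ptgs1 and chr1:150099781-150100080 (plus strand) for Ptgs2. Capitals mark the letters GCGTG, the core of the element known to be bound by AhR and its partner, or CACGC, the same letters on the other strand.
Pla2g4a: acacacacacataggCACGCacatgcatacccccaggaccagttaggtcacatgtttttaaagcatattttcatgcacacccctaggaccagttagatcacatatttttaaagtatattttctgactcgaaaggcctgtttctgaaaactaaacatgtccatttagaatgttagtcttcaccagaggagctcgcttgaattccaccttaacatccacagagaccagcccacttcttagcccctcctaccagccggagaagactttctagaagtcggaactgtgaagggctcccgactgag
Ptgs1: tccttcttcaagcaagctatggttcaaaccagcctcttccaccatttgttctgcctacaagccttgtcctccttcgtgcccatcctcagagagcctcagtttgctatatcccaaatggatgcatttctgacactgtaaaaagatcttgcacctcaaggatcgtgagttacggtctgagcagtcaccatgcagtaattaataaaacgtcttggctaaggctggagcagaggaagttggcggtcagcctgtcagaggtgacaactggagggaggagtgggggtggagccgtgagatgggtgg
Ptgs2: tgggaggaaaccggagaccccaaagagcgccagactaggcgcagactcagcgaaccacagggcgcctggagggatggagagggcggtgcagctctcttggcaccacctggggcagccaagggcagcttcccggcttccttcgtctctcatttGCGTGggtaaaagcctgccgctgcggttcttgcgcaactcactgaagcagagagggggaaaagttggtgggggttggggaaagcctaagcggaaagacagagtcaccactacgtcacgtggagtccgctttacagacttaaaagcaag
The Pla2g4a window held the letters once, on the opposite strand, 235 bases before the start. The Ptgs2 window also held them once, 98 bases before the start, and the Ptgs1 window did not hold them. A second annotated start of Pla2g4a (chr1:149922390-149922689) had none. Of the 11 windows of the 10 members, 6 had at least 1 match, 1 window each of Pla2g4a, Pla2g6, Ptgs2, Ptges, Ptges2 and Hpgd, against 32.4% of all 32851 windows in the table. The Pla2g6 window held 3 matches. A match describes letters and is not a binding site.

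Per kilobase of transcript, Ptgs1 was the most abundant member, at 53.2 CPM per kilobase averaged over the 9 libraries (47.3 to 61.0). Its lowest library lay above the highest of Ptgr1, which averaged 31.0 CPM per kilobase (26.6 to 45.3). Pla2g4a followed at 23.2 (14.0 to 29.2), Ptges2 at 14.1 (12.3 to 18.8) and Pla2g15 at 13.5 (11.7 to 15.6), all in CPM per kilobase. From Ptgr1 to Pla2g15, each neighbour in this order overlapped the next in its range over the libraries. Pla2g6 averaged 5.12 CPM per kilobase (4.50 to 5.81) and Ptges 1.21 (0.792 to 1.95), each without overlap with its neighbours. Hpgd, Ptgs2 and Alox5 stood at or near 0.

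**Figure D1:**
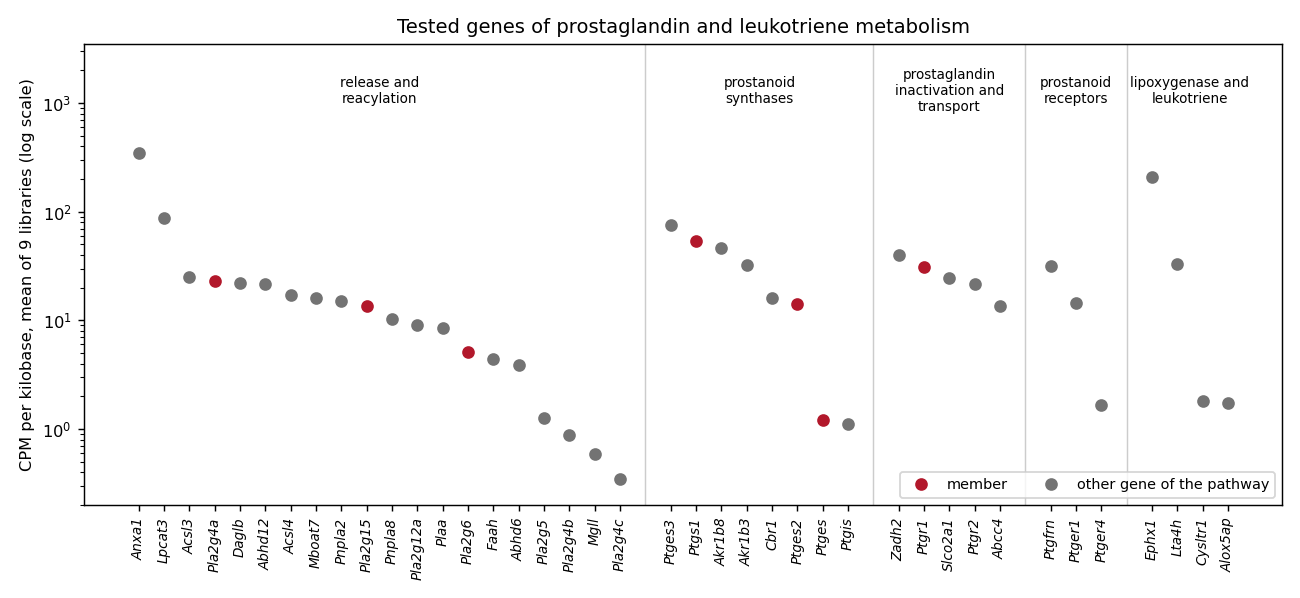
Level of each tested gene of prostaglandin and leukotriene metabolism in CPM per kilobase of transcript, as the mean of 9 libraries on a log scale, grouped by role, with members in red. Ptgs1 had 53.2 CPM per kilobase and Ptges 1.21; the untested Ptgs2, Hpgd and Alox5 are not drawn.

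Of the phospholipases, Pla2g4a alone had a difference from control that passed the test in any fit listed here, and it was higher with both ligands. Pla2g4a (gene 18783, NM_008869, 2846 nt, 18 exons) had 76.4, 81.1 and 83.2 CPM in the FICZ libraries, 69.6, 64.6 and 74.9 CPM in the tryptamine libraries, and 53.0, 50.3 and 40.0 CPM in the control libraries. Every FICZ library lay above every tryptamine library, and every tryptamine library above every control library; control replicate 3 was the lowest. The group means were 80.2 ± 3.49 CPM with FICZ, 69.7 ± 5.16 CPM with tryptamine and 47.8 ± 6.88 CPM in the control (SD, n = 3 each), from 467 to 1360 counts per library.

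Over control, Pla2g4a was 1.68-fold higher with FICZ, a log2 difference of 0.75 ± 0.123 (SE) with a 95% interval of 0.48 to 1.02. By edgeR's quasi-likelihood test with Benjamini-Hochberg adjustment over 12360 genes, its adjusted p was 0.0640 with all 9 libraries, which missed 0.05. Without control replicate 3, Pla2g4a rose with FICZ by 0.64 ± 0.0907 on the log2 scale, to 80.2 CPM against 51.7 CPM in controls 1 and 2, with an edgeR adjusted p of 1.24e-04. With all 9 libraries 0 of the 7 tested members were called against a background of 0.113% of genes called higher and 0 lower. Without control replicate 3, 1 of 7 was called, against 0.805% of genes called (0.574% higher and 0.231% lower). This gene was known to differ when the members were proposed, so its call is a description of these libraries.

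With tryptamine, Pla2g4a was 1.46-fold higher than in the control, a log2 difference of 0.54 ± 0.123 (SE) with a 95% interval of 0.27 to 0.82. The edgeR adjusted p was 0.741 with all 9 libraries, where 0 of 7 members and 0.00809% of genes were called higher. Pla2g4a rose with tryptamine in the fit without control replicate 3, by 0.43 ± 0.0909 on the log2 scale, to 69.7 CPM against 51.7 CPM in controls 1 and 2, with an edgeR adjusted p of 0.0415. In that fit 1 of 7 members was called, against 0.183% of genes called higher and 0.0160% called lower. Both comparisons share the control libraries.

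Set directly against each other, at doses that differ (10 nM and 50 uM), the log2 difference of FICZ over tryptamine for Pla2g4a was 0.20 ± 0.122 (SE), with a 95% interval of -0.07 to 0.47 and an edgeR adjusted p of 1.00. In the fit that leaves out control replicate 3 the interval was 0.04 to 0.37 and the adjusted p was 0.677; 0 of 7 members and 0.136% of genes were called there. With all 9 libraries 0 of 7 members and 0% of genes were called in this comparison by edgeR. There 213 genes (1.72%) had an unadjusted edgeR p under 0.05, against 748 (5.97%) in the fit without control replicate 3. The counts by other tools are given with the processing alternatives. For the AhR targets, values stood in the same order of groups: Cyp1b1, a cytochrome P450, averaged 14.5, 11.8 and 4.29 CPM with FICZ, with tryptamine and in the control, Nqo1, a quinone reductase, 75.2, 56.2 and 30.4 CPM, and Tiparp, a feedback repressor of AhR, 55.7, 46.3 and 33.4 CPM. The log2 difference of FICZ over control was 4.08 ± 0.101 for Cyp1a1 and 0.74 ± 0.111 for Tiparp, with edgeR adjusted p of 5.00e-09 and 0.0396. That of tryptamine over control was 3.57 ± 0.0991 for Cyp1a1 and 0.47 ± 0.111 for Tiparp, with edgeR adjusted p of 1.66e-08 and 0.741. In the fit without control replicate 3, tryptamine over control had edgeR adjusted p of 1.87e-04 for Nqo1, 0.00298 for Cyp1b1 and 0.0591 for Tiparp. With all 9 libraries the edgeR values were 0.726 for Nqo1 and 0.244 for Cyp1b1. For Cyp1a1, FICZ over tryptamine was at 0.51 on the log2 scale, with an edgeR adjusted p of 0.642. Without control replicate 3 it was at 0.52, with an edgeR adjusted p of 1.10e-05.

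**Figure D2:**
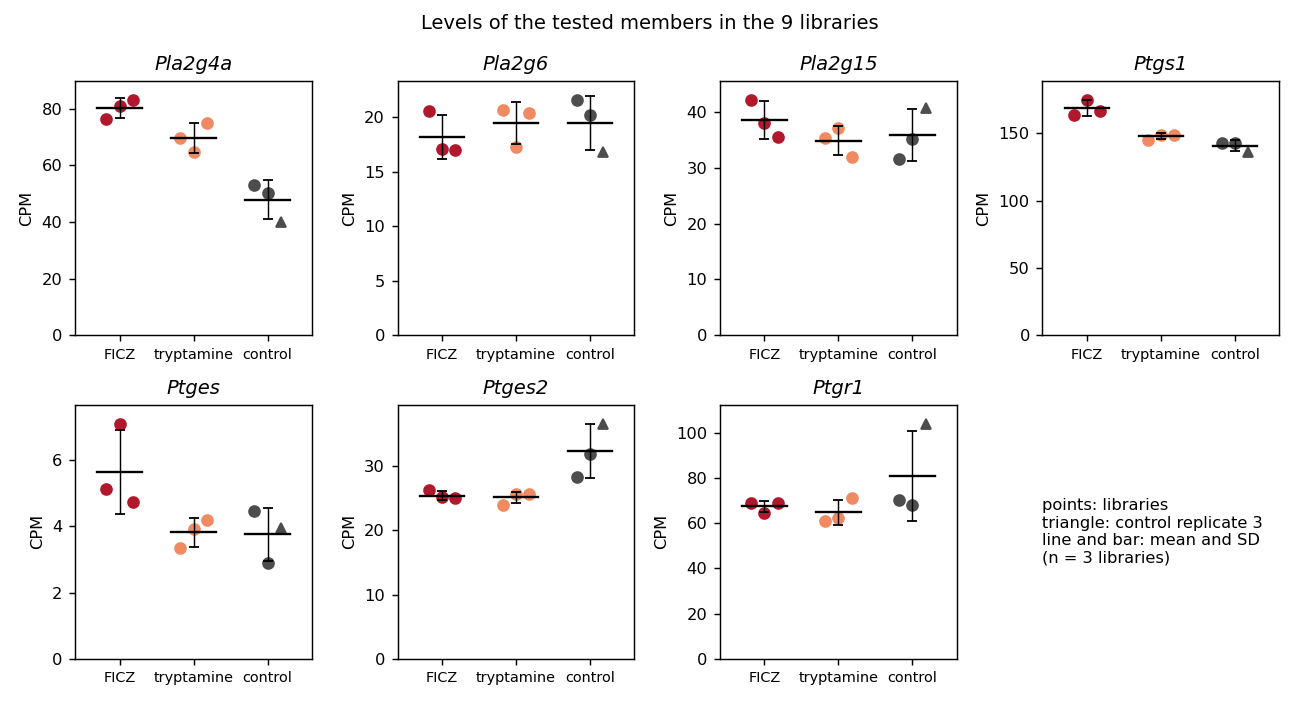
CPM of the 7 tested members in each library, with FICZ, tryptamine and control from left to right; lines and bars are the mean and SD of 3 libraries, and triangles are control replicate 3. The Pla2g4a groups do not overlap (64.6 to 83.2 CPM with the ligands, 40.0 to 53.0 CPM in the control).

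**Figure D3:**
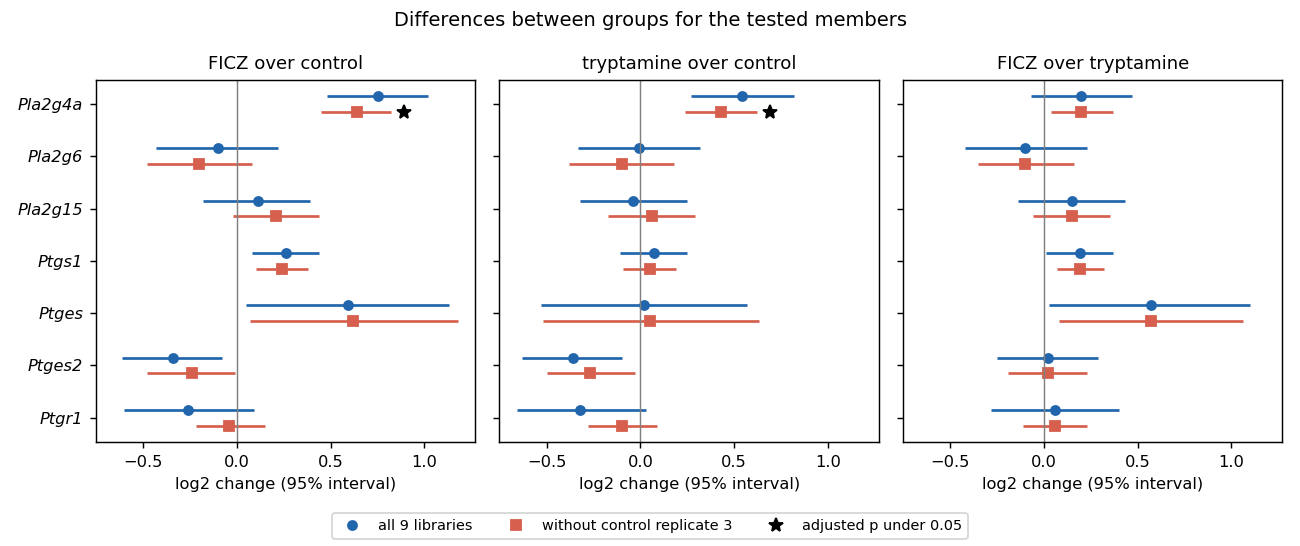
Log2 difference between groups with its 95% interval for the 7 tested members, with all 9 libraries (circles) and without control replicate 3 (squares); stars mark an edgeR adjusted p under 0.05. Stars stand only at Pla2g4a without control replicate 3, for FICZ over control (0.64) and tryptamine over control (0.43).

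Pla2g4a was listed with 7 transcripts, and all 7 had higher mean CPM with FICZ and with tryptamine than in the control. The 4 transcripts of over 2000 nt with 16 to 18 exons gave log2 ratios of 0.73 to 0.75 for FICZ over control and 0.54 to 0.55 for tryptamine over control. The other 3 gave 0.99 to 1.18 for FICZ over control and 0.60 to 0.93 for tryptamine over control. In control replicate 3 those 3 transcripts were at -1.89 to -1.17 relative to controls 1 and 2 on the log2 scale, against -0.37 to -0.31 for the 4 long ones. Of the 3, a 332 nt transcript lies 15.1% to 24.1% along the mRNA, and a 247 nt transcript lies 1.26% to 6.97% along it, near the 5′ end. Against controls 1 and 2 alone, the FICZ ratio was 0.62 to 0.64 in the 4 long transcripts and 0.62 to 0.89 in the other 3, and the tryptamine ratio was 0.43 to 0.44 in the 4 and 0.19 to 0.63 in the 3. Transcripts of a gene share exons and reads and are not independent.

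**Figure D4:**
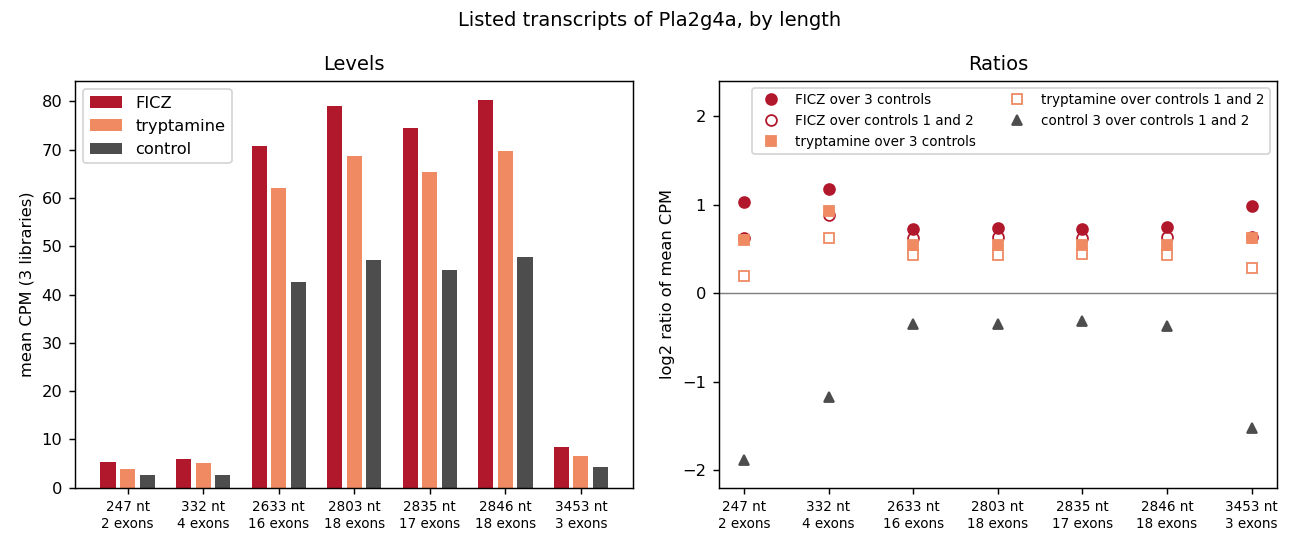
Listed transcripts of Pla2g4a in order of length, as mean CPM of 3 libraries per group (left) and as log2 ratios of mean CPM (right), with and without control replicate 3. Control replicate 3 (triangles) was at -1.17 to -1.89 in the 247, 332 and 3453 nt transcripts and at -0.31 to -0.37 in the others.

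In the authors' deposited table, 6 of 7 Pla2g4a transcripts were higher with FICZ at an adjusted p under 0.05, against 2.38% of 130882 transcripts called higher and 3.23% called lower. The authors' deposited table gave NM_008869 a log2 change of 0.70 with an adjusted p of 1.24e-05 for FICZ, and of 0.50 with an adjusted p of 0.0470 for tryptamine. For tryptamine the authors' deposited table called 1 of 7 Pla2g4a transcripts, against 0.393% called higher and 1.05% lower, and for FICZ over tryptamine it called 0 of 7, against 0.0641% called higher and 0.0153% lower. No transcript of the other members was called in the authors' deposited table in any comparison, where the lowest adjusted p-values for FICZ over control were 0.0699 for Ptgr1, 0.0755 for Ptges2 and 0.0857 for Ptgs1. The authors' deposited table of 81 genes higher with FICZ held Pla2g4a on 1 of its 7 transcripts, and their list of 22 genes higher with tryptamine held no member. The Pla2g4a entry had a log2 change of 1.155, which matches the 332 nt transcript, at 1.15 with an authors' adjusted p of 0.0235. That transcript was at -1.17 in control replicate 3 relative to controls 1 and 2, on the log2 scale.

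Neither of the other phospholipases passed the test. Pla2g6 (gene 53357), the calcium-independent phospholipase A2, had 20.6, 17.1 and 17.0 CPM in the FICZ libraries, 20.7, 17.3 and 20.4 CPM in the tryptamine libraries, and 21.6, 20.2 and 16.8 CPM in the control libraries, so the groups overlapped. Its log2 difference over control was -0.10 with FICZ (95% interval -0.43 to 0.22) and -0.01 with tryptamine (-0.33 to 0.32). Without control replicate 3 these were -0.20 (-0.48 to 0.08) and -0.10 (-0.38 to 0.18), and the groups still overlapped. Pla2g15 (gene 192654), a lysosomal phospholipase, had 42.2, 38.1 and 35.5 CPM in the FICZ libraries, 35.4, 37.2 and 32.0 CPM in the tryptamine libraries, and 31.6, 35.2 and 40.8 CPM in the control libraries. Its groups overlapped too, with control replicate 3 the highest control, and its log2 differences were 0.11 with FICZ (-0.18 to 0.39) and -0.04 with tryptamine (-0.32 to 0.25). When control replicate 3 was left out, every FICZ library lay above controls 1 and 2, at a log2 difference of 0.21 (-0.02 to 0.44, edgeR adjusted p 0.561), and the tryptamine value changed sign to 0.06 (-0.17 to 0.29). Among 8 phospholipase A2 genes that passed the filter, Pla2g4a had the highest level per kilobase, and Pla2g15, Pnpla8, Pla2g12a and Pla2g6 followed at 13.5, 10.2, 9.06 and 5.12 CPM per kilobase. As a share of the summed level per kilobase of those 8 genes, Pla2g4a made up 40.2%, 41.6% and 41.8% after FICZ. It made up 37.6%, 36.2% and 38.4% after tryptamine, and 32.2%, 31.1% and 25.4% in the control. The 25.4% was that of control replicate 3, and the part of its length-dependent shift was not tested. These shares rest on the Pla2g4a counts given above and are not a separate result.

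Of the cyclooxygenases, the constitutive Ptgs1 was abundant and the inducible Ptgs2 was at the limit of detection. Ptgs1 (gene 19224, NM_008969, 2864 nt) had 164, 175 and 167 CPM in the FICZ libraries, 145, 149 and 149 CPM in the tryptamine libraries, and 143, 143 and 136 CPM in the control libraries. The FICZ libraries lay above all others, and the tryptamine libraries above the control libraries by a narrow margin. The log2 difference of FICZ over control was 0.26 ± 0.0825 (SE; 95% interval 0.08 to 0.44) with an edgeR adjusted p of 0.601, and without control replicate 3 it was 0.24 with an adjusted p of 0.129. The log2 difference of tryptamine over control was 0.07 (-0.11 to 0.25), and that of FICZ over tryptamine was 0.19 (0.01 to 0.37), with edgeR adjusted p of 0.765 and 1.00.

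Ptgs2 (gene 19225) had 2 counts over all 9 libraries, both in FICZ replicate 2, and 0 in the tryptamine and control libraries. Its pooled level with FICZ was 0.0440 CPM, with an exact 95% Poisson interval of 0.00533 to 0.159 CPM that covers counting error only. By the same exact interval, 0 counts allowed up to 0.0854 CPM in the pooled tryptamine libraries and 0.0900 CPM in the pooled control libraries. Ptgs2 made up 2 of 19834 counts of both cyclooxygenases, or 0.0101% (exact binomial 95% interval 0.00122% to 0.0364%). No difference of Ptgs2 between the groups was detectable at this depth.

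The prostaglandin E synthases were on opposite sides of the control with FICZ, and neither passed the test. Ptges (gene 64292), the inducible microsomal synthase, had 5.12, 7.10 and 4.72 CPM in the FICZ libraries, 3.33, 3.93 and 4.19 CPM in the tryptamine libraries, and 4.46, 2.89 and 3.94 CPM in the control libraries. Its FICZ libraries lay above all others, by a narrow margin over control replicate 1, and its tryptamine and control libraries overlapped. Its log2 difference over control was 0.59 ± 0.244 with FICZ (95% interval 0.05 to 1.13, edgeR adjusted p 0.601) and 0.02 ± 0.251 with tryptamine (-0.53 to 0.57), or 0.62 and 0.05 without control replicate 3. Over tryptamine, FICZ was at 0.57 on the log2 scale (0.03 to 1.10) with an edgeR adjusted p of 1.00. In the shorter listed transcripts of Ptges, of 2096 nt or less, FICZ and control libraries overlapped. The transcript of 2096 nt had 41 counts in FICZ replicate 3 and 54 in control replicate 1.

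Ptges2 (gene 96979), the second membrane-associated synthase, had 26.2, 25.2 and 25.0 CPM in the FICZ libraries, 24.0, 25.6 and 25.6 CPM in the tryptamine libraries, and 28.3, 31.9 and 36.6 CPM in the control libraries. Every library of either ligand was below every control library, and control replicate 3 was the highest. Its log2 difference over control was -0.34 ± 0.120 with FICZ and -0.36 ± 0.121 with tryptamine, with edgeR adjusted p of 0.601 and 0.741. When control replicate 3 was left out these were -0.24 and -0.27, with edgeR adjusted p of 0.476 and 0.734.

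Of the inactivating enzymes, Ptgr1 was well expressed and Hpgd was not detected above the limit. Ptgr1 (gene 67103), the prostaglandin reductase, had 69.0, 64.6 and 68.8 CPM in the FICZ libraries, 60.9, 62.2 and 71.0 CPM in the tryptamine libraries, and 70.4, 68.0 and 104 CPM in the control libraries. Control replicate 3 alone stood out, and the groups overlapped. The log2 difference over control was -0.26 with FICZ and -0.32 with tryptamine, and without control replicate 3 it was -0.04 and -0.10, so that library moved both values by more than 1.5 times. Hpgd (gene 15446), the prostaglandin dehydrogenase, had 1 count over all libraries, in tryptamine replicate 2. That count lay in a listed transcript of 1222 nt with 1 exon. The listed Hpgd transcripts with 7 exons had 0 counts. Alox5 (gene 11689), the lipoxygenase that starts leukotriene synthesis, had 0 counts, which allows up to 0.0231 CPM over the 9 libraries at 3 counts. For these 2 genes no difference between the groups was detectable at this depth.

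**Figure D5:**
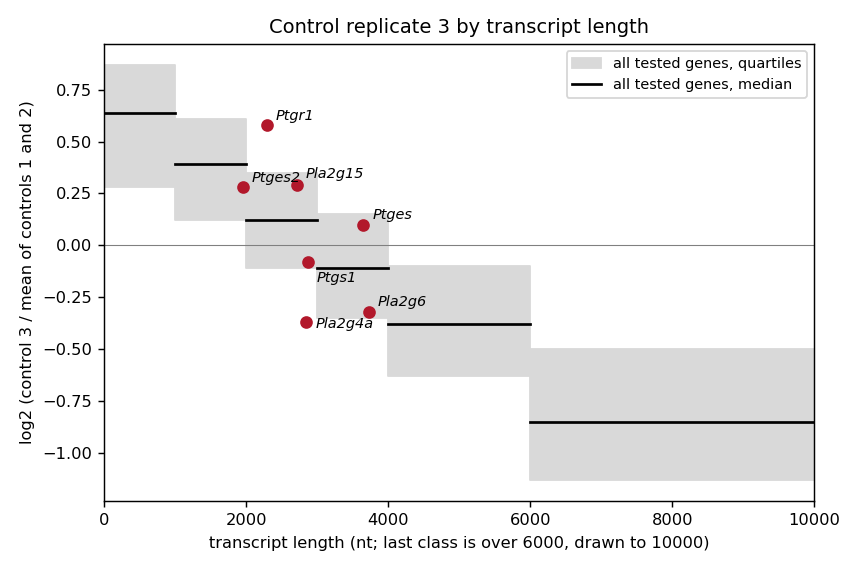
Log2 ratio of control replicate 3 to the mean of controls 1 and 2 against transcript length; grey bands and lines are the quartiles and median of all tested genes in a class of length, and red points are the 7 tested members. Pla2g4a lies at -0.37 and Ptgr1 at 0.58, below and above the quartiles of the class of 2000 to 3000 nt, whose median is 0.12.

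Read over the 7 tested members, 3 were higher and 1 was lower with FICZ than in every control library, against 8.22% of genes higher and 7.41% lower without overlap. With tryptamine 2 were higher and 1 lower without overlap, against 4.98% and 5.07% of genes. FICZ libraries were above all tryptamine libraries for 3 members and below for 0, against 5.66% and 5.71% of genes. The median log2 difference of the 7 was 0.11 for FICZ over control, against -0.01 for all tested genes, and -0.01 for tryptamine over control, against 0.00 for all. Without control replicate 3 it was 0.21 for FICZ over control and 0.05 for tryptamine over control. For FICZ over tryptamine it was 0.15 in both fits, with 6 of 7 members above 0, beside 49.8% of all genes. Those 7 passed a filter on low counts and do not stand for all 10. Members were chosen with earlier results of these data known, and Pla2g4a was among those without overlap in each comparison. The counts and medians over the members are therefore a description and carry no test.

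Among transcripts of its length, Pla2g4a was low in control replicate 3, where it was at -0.37 relative to controls 1 and 2, against a median of 0.12 and a lower quartile of -0.11 for transcripts of 2000 to 3000 nt. In the same class, Pla2g15 was at 0.29 and Ptgs1 at -0.08. Ptges2 was at 0.28, against a median of 0.39 for transcripts of 1000 to 2000 nt. Ptges was at 0.10 and Pla2g6 at -0.32, both within the quartiles of -0.35 to 0.15 for transcripts of 3000 to 4000 nt. The part of that library's length-dependent shift in the Pla2g4a value was not tested. Without that library the log2 difference of Pla2g4a over controls 1 and 2 was 0.64 with FICZ and 0.43 with tryptamine.

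Across the 9 libraries, the genes most like Pla2g4a in log2 CPM were Hspa4l, a relative of heat shock protein chaperones (Pearson r = 0.988, Spearman rho = 0.983), Cyp1b1 (0.985 and 0.850) and Naip2, an inflammasome sensor (0.983 and 0.967). Hspa4l averaged 180.3 CPM with FICZ, 156 CPM with tryptamine and 108 CPM in the control. Over the 8 libraries without control replicate 3 the 3 most like genes were Hspa4l (r = 0.983), Nfe2l2, a regulator of antioxidant genes (0.978), and Tiparp (0.978). The libraries share their groups and their normalization, so these values describe the libraries and carry no test.

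The wider pathway is described by list. For FICZ over control 0.113% of all tested genes were called with all 9 libraries, and 0.805% without control replicate 3. At such shares 0 called in a short list is near the background, for each list below. Of 32 genes of arachidonate release and reacylation 17 were tested, and 0 rose or fell in any comparison, with all 9 libraries or without control replicate 3, at the backgrounds given above. Their median log2 difference of FICZ over control was -0.06, against -0.01 for all tested genes. Daglb, a diacylglycerol lipase, had the lowest value, at -0.47 with FICZ and -0.49 with tryptamine. Its libraries had 64.5, 65.1 and 70.7 CPM with FICZ, 58.4, 60.8 and 78.3 CPM with tryptamine, and 72.2, 69.2 and 136 CPM in the control. Its log2 differences were -0.08 and -0.10 when control replicate 3 was left out. Anxa1, an inhibitor of phospholipase A2, averaged 556 CPM with FICZ, 573 CPM with tryptamine and 626 CPM in the control, a log2 difference of -0.17 with FICZ and -0.13 with tryptamine over control, or -0.09 and -0.05 without control replicate 3. Faah, the fatty acid amide hydrolase, was at -0.27 with FICZ, and Acsl3, an acyl-CoA synthetase, at 0.21 with tryptamine.

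Of 10 further prostanoid synthases 9 were in the tables, 5 were tested and 0 passed in any comparison. All 5 lay below 0 for FICZ over control, with a median of -0.34, but without control replicate 3 the median was -0.05 and 2 of 5 lay above 0. Cbr1 and Akr1b3, which reduce prostaglandins, were at -0.40 and -0.34 with FICZ, and at -0.14 and -0.15 without control replicate 3. Ptgis, the prostacyclin synthase, averaged 1.85 CPM with FICZ, 1.57 CPM with tryptamine and 2.41 CPM in the control, or 1.77 CPM in controls 1 and 2. Its log2 difference over control was -0.36 with FICZ and -0.59 with tryptamine, and 0.07 and -0.17 without control replicate 3.

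Of 5 genes of prostaglandin inactivation and transport 4 were tested, and 0 passed with all 9 libraries. Slco2a1, the prostaglandin uptake transporter, had 94.4, 86.3 and 87.4 CPM in the FICZ libraries, 113, 101 and 97.9 CPM in the tryptamine libraries, and 119, 113 and 79.5 CPM in the control libraries. Control replicate 3 was the lowest of all 9 libraries, and controls 1 and 2 lay above every FICZ library. Slco2a1 fell with FICZ when control replicate 3 was left out, by 0.38 on the log2 scale, to 89.4 CPM against 116 CPM in controls 1 and 2, with an edgeR adjusted p of 0.0169. In that fit 1 of the 4 tested genes of this list was called, against 0.231% of all tested genes called lower. For Slco2a1 the log2 difference with all 9 libraries was -0.22 with an edgeR adjusted p of 0.603. Abcc4, an exporter of prostaglandins, had 92.1, 88.3 and 91.5 CPM with FICZ, 82.4, 78.2 and 84.3 CPM with tryptamine, and 74.8, 74.5 and 42.8 CPM in the control. Its groups did not overlap, and the log2 difference of FICZ over control was 0.50 ± 0.179, or 0.28 without control replicate 3, with edgeR adjusted p of 0.601 and 0.129. Zadh2, which reduces the same oxidised products as Ptgr1, was at 0.20 with FICZ and at 0.12 with tryptamine, and Ptgr2 at 0.02 and 0.15, or -0.02 and 0.11 without control replicate 3.

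Of 10 genes of prostanoid receptors 9 were in the tables, 3 were tested and 0 passed. Ptger1 and Ptger4, receptors of prostaglandin E, averaged 66.7 and 7.00 CPM with FICZ, 69.0 and 6.02 CPM with tryptamine, and 57.7 and 5.87 CPM in the control. Controls 1 and 2 averaged 68.9 CPM for Ptger1 and 6.59 CPM for Ptger4, and without control replicate 3 the log2 difference of FICZ over control for Ptger1 was -0.05, against 0.21 with all 9 libraries. For Ptger4 it was 0.09 against 0.25, and that of tryptamine over control was -0.13 against 0.03. Ptgfrn, a regulator of the prostaglandin F receptor, averaged 191 CPM with FICZ, 192 CPM with tryptamine and 173 CPM in the control, or 197 CPM in controls 1 and 2. Its log2 difference over control was 0.14 with either ligand, and -0.04 with either without control replicate 3. Of 19 lipoxygenase and leukotriene genes 4 were tested and 0 passed. Alox5ap, the protein that presents arachidonate to Alox5, averaged 1.42 CPM with FICZ, 1.90 CPM with tryptamine and 1.48 CPM in the control, or 1.37 CPM in controls 1 and 2. Lta4h, the leukotriene A hydrolase, averaged 64.6, 67.3 and 72.2 CPM with FICZ, with tryptamine and in the control. Cysltr1, a receptor of cysteinyl leukotrienes, averaged 9.41, 10.2 and 8.49 CPM in the same groups, and Ephx1, an epoxide hydrolase, 348, 369.5 and 376 CPM. Controls 1 and 2 averaged 367 CPM for Ephx1, below its mean with tryptamine.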

How the data were processed

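RNA sequencing of 9 libraries (3 FICZ, 3 tryptamine, 3 control) was read from the deposited transcript tables. Per the file headers, the authors gave whole-number read counts per transcript, normalized signal, p-values, adjusted p-values and log2 fold changes for each pair of groups. Per the submitters' processing notes the tool was DESeq; no aligner, genome build or counting rule is given in the sources used here, and a read may count for several transcripts of a gene. The deposited normalized signal was not used. The deposited p-values and log2 values are printed only as the authors' own.

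Of 189660 transcripts, 26853 had no gene identifier (3.56% to 4.23% of counts) and were left out. Counts of 1 transcript per gene were tested with edgeR 4.0.16 (R 4.3.3; quasi-likelihood, TMM scaling, filterByExpr, all 9 libraries, Benjamini-Hochberg over 12360 genes, called at an adjusted p under 0.05), and 12539 genes were tested without control replicate 3. CPM used TMM-scaled library sizes. Depth was 11594793 to 16715841 counts per library. The test was checked on simulated counts with known changes. The simulated libraries held no shift like that of control replicate 3, so the check does not cover such a library. Alternatives included DESeq2 1.42.0 and limma 3.58.1. Members and lists were chosen with earlier results of these data known. Named were all members, 4 AhR target genes, the genes most correlated with Pla2g4a, and in each wider list the genes that passed and those of smallest p; genes giving context (Anxa1, phospholipases by level) were named after their values were seen. Promoters came from RefSeq (GRCm38.p6; 10 of 10 members matched).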

Additional observations from a re-analysis of the deposited data

How the results depend on the processing

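With all 9 libraries edgeR called 14 genes for FICZ over control, 1 for tryptamine over control and 0 for FICZ over tryptamine. Leaving out 1 library at a time gave 4 to 101, 1 to 25 and 0 to 17 genes, and each highest value came without control replicate 3. For FICZ over control, 5 genes were called without control replicate 1, 8 without control replicate 2, 4 without any one FICZ library, and 6 and 7 without tryptamine replicates 1 and 3. DESeq2's Wald test called 54, 12 and 10 genes in the 3 comparisons, limma voom with sample quality weights 111, 14 and 18, no filter on low counts 26, 2 and 0, sums over transcripts 4 and 2 in the comparisons with control, and only the 6 libraries of a pair 2 for FICZ over control and 17 for FICZ over tryptamine. Of the members, 0 were called in each comparison with all libraries; Pla2g4a was the 1 called for FICZ over control without control replicate 3, with DESeq2, with voom weights and with no filter, and the 1 called for tryptamine over control without control replicate 3. Over the 17 alternatives its edgeR, DESeq2 or limma adjusted p ran from 2.22e-05 to 0.422 for FICZ and from 0.0415 to 0.907 for tryptamine. Leaving out 1 library gave 0 to 1 members in both comparisons with control. Same-numbered replicates correlated at -0.058 to 0.12 in their deviations from group means. With 3 libraries per group this cannot decide whether the numbers pair the libraries, which the main fit treated as unpaired. With the replicate block 4 genes were called for FICZ over control, and Pla2g4a stood at 0.75 with an edgeR adjusted p of 0.274. Of 357 alternative log2 differences of members, 340 kept direction and call, 5 came to pass and 12 changed sign, all 12 near 0: Pla2g6 with tryptamine (-0.10 to 0.075 leaving out 1 library), Pla2g15 with tryptamine (-0.12 to 0.061 leaving out 1 library, 0.077 with voom weights), Ptges with tryptamine (-0.14 to 0.17 leaving out 1 library, -0.003 with voom weights) and Ptges2 for FICZ over tryptamine (-0.014 to 0.035 leaving out 1 library, -0.016 with sums). Without length correction 4 members held another rank by level, and without control replicate 3 the genes most like Pla2g4a shared 1 of 3. The cause of these shifts was not tested. Depth limits Ptgs2, Hpgd and Alox5, at 0 to 2 counts each.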
